A study of Mus musculus with 4 samples.

Results

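The BCL2 family of survival and death genes was examined in iTreg cells cultured with or without added iron. Its 10 members were chosen by name and matched by mouse Ensembl ID (Bcl2, Bcl2l1, Mcl1, Bcl2l11, Bax, Bak1, Bbc3, Pmaip1, Bid and Bad). All 10 were found among the 47729 gene IDs of the count table. The cells were wild-type CD4 T cells of C57BL/6 mice, labelled as spleen, cultured so that they become induced regulatory T (iTreg) cells. Both groups shared the iTreg medium, which held recombinant TGF-β and IL-2 with blocking antibodies to IFN-γ and IL-4, and both were stimulated through CD3 and CD28. For 4 days one group received ferrous sulfate (FeSO4, 50 µM) and the other received PBS (Mock). Each group had 2 libraries, described in the study's methods as pairs from independent experiments. By the study's methods the mice were age-matched young adults. Such a culture can also hold CD4 T cells that did not become Foxp3+.

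BCL2 family proteins decide at the outer mitochondrial membrane whether a cell lives or dies. Guardians such as BCL2, BCL-XL (encoded by Bcl2l1) and MCL1 hold the effectors BAX and BAK in check. When the BH3-only proteins, among them BIM (Bcl2l11), PUMA (Bbc3) and NOXA (Pmaip1), occupy the guardians or engage the effectors, BAX and BAK open the membrane, cytochrome c leaves and caspases are activated. In T cells this pathway ends most responses once cytokine becomes scarce. MCL1 is known to be essential for the survival of Treg cells, and BIM for their removal.

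FOXO transcription factors are known to switch on the BH3-only genes Bcl2l11 and Bbc3. A short stretch of each promoter is printed because it holds letters of the motif known for these factors. Capitals mark the forkhead letters GTAAACA, or TGTTTAC where they lie on the opposite strand, within the RefSeq windows (GRCm38.p6) that run from 250 bases before to 50 bases after a start site.
Bcl2l11 (chr2:128125800-128125828, plus strand): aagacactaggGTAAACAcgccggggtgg
Bbc3 (chr7:16310083-16310111, plus strand): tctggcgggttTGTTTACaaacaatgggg
The match begins 227 bases before the start site in Bcl2l11 and 167 bases before one of the start sites in Bbc3. RefSeq windows were at hand for 9 of the 10 members (15 windows). These letters, searched on both strands, were present in 3.65% of all 32851 windows and in the windows of 2 members, Bcl2l11 and Bbc3. Of the other motifs searched for factors of the pathway, the MYC E-box CACGTG was found at Bax and Bbc3 (7.15% of all windows), the NF-κB motif at Bcl2l1, Mcl1 and Bbc3 (5.56%), and the E2F letters TTTCGCGC at Bcl2l1 (0.323%). The STAT5 letters TTCNNNGAA, the ATF4 letters TGATGNAA and the AP-1 letters TGANTCA matched no window of a member, against 8.3%, 3.97% and 7.81% of all windows. No matches of different motifs overlapped. A match of letters is a description of the sequence, not evidence of binding.

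Gene rows held 35183187 to 40859178 reads per library. Levels are given as CPM, counts scaled to a common library size with TMM, which corrects for composition. At this depth the 95% Wilson interval of a member's share of reads reached from 1.54% (Mcl1) to 10.6% (Bid) of its value to either side, counting error only. T cell markers were abundant in all libraries: the 7 listed genes, Foxp3 among them, summed to 4126 and 4305 CPM in the Mock libraries and to 4311 and 4528 CPM in the FeSO4 libraries. The single genes moved in both directions. Foxp3, the transcription factor that defines Treg cells, was at 587 and 693 CPM in Mock and at 376 and 472 CPM in FeSO4, and it was called lower (log2 fold change -0.59 ± 0.09, SE, edgeR adjusted p = 0.000223). Cd3g, Cd3d and Trac were called higher, and Cd3e, Cd4 and Il2ra were not called. Of the listed markers of other cells, the summed level was higher in FeSO4 for B cell genes (162 to 173 CPM in Mock, 248 to 278 CPM in FeSO4, mostly Ighm, with the defining marker Ms4a1 at no more than 1 count), myeloid genes (88 to 98.4 against 116 to 118 CPM, mostly Cst3), erythroid genes (19.8 to 24.9 against 32.6 to 37.6 CPM, nearly all Hba-a1, with Alas2 at 4 to 16 counts) and NK cell genes (1.65 to 1.82 against 2.76 to 3.42 CPM, with 2 of 4 genes at 0 counts). For the CD8 T cell genes it was 9.04 to 9.81 against 9.95 to 11 CPM, and neither gene was called. The myeloid genes Lyz2, Csf1r, Cd14, S100a8 and S100a9 were at 0 counts in both FeSO4 libraries. Mock replicate 1 stood apart in several markers of other cells, with 164 counts of Lyz2 (at most 8 elsewhere), 156 of Igkc (at most 8 elsewhere), 94 of Cd8a (25 to 47 elsewhere) and 8 each of S100a8 and S100a9 (0 elsewhere). The part of these markers in the results on the BCL2 family was not tested. In bulk RNA, fewer cells of a type and less RNA per cell cannot be told apart. By intracellular staining, the paper reported little change in Foxp3 induction when iTreg cultures received iron sulfate. That is a measure of protein and not of RNA.

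The measured differences of the family between the groups were mostly small. Bbc3, which encodes PUMA, fell in FeSO4 and was the only member called at an adjusted p under 0.05, and 9 of 10 members were not called. By the same test 20.0% of all 13732 genes tested were called and 9.17% were called lower, so the share of members called (1 of 10) was not above the background. The median log2 fold change of the members was -0.014, against -0.00052 over all genes tested. Their median absolute log2 fold change was 0.08, against 0.2 over all genes tested and 0.145 over the 8522 genes that averaged 10 CPM or more, a bound chosen after the values were seen. Of the 10 members, 5 were above 0 and 5 below. With library size only as the scaling, 9 were below 0.

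**Figure D1:**
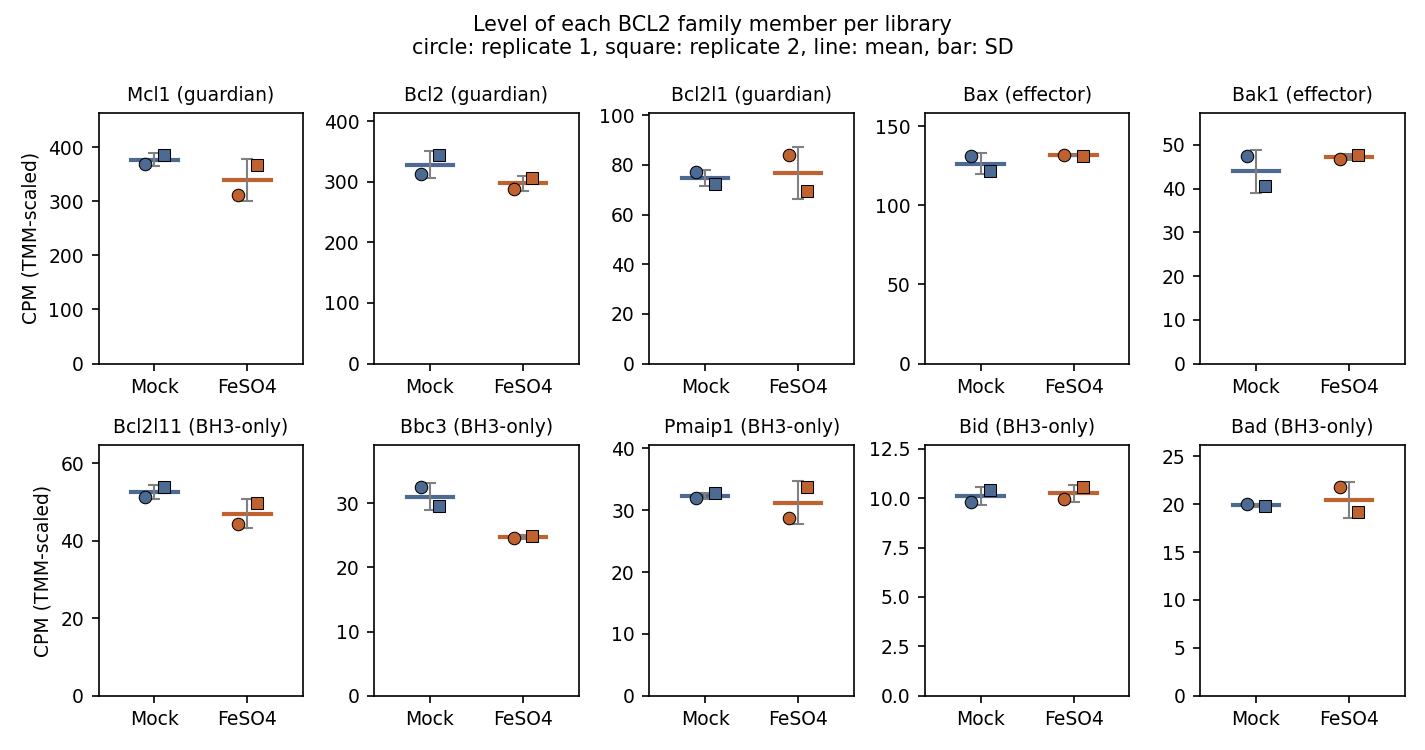
Level of each member in CPM (vertical axis, from 0) in the Mock and FeSO4 groups. Points are libraries (circle replicate 1, square replicate 2), lines are means and bars are SD. Bbc3 is the panel with the widest relative gap, 31 CPM in Mock against 24.7 CPM in FeSO4 on average.

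Among the guardians, Mcl1 had the highest level. Mcl1 (ENSMUSG00000038612) lies on chromosome 3 at 95656944 to 95663179 (GRCm38) and encodes a short-lived protein that binds BIM, NOXA and BAK. It was at 369 and 386 CPM in Mock replicates 1 and 2, and at 313 and 368 CPM in FeSO4 replicates 1 and 2. Both FeSO4 libraries were below both Mock libraries, but FeSO4 replicate 2 lay within 2 CPM of Mock replicate 1. The log2 fold change of Mcl1 was -0.15 ± 0.07 (SE, adjusted p = 0.162). With the replicate number as a block, Mcl1 passed the threshold (log2 fold change -0.15, adjusted p = 0.0482). It also passed without FeSO4 replicate 2 (-0.27, adjusted p = 0.0291) and was at -0.03 without FeSO4 replicate 1, so the size of this difference rested on 1 library.

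Bcl2 (ENSMUSG00000057329, chromosome 1, 106538176 to 106714290) encodes the founding guardian. It was at 312 and 344 CPM in Mock and at 288 and 306 CPM in FeSO4. The groups did not overlap, and the gap between the nearest libraries was smaller than the gap within Mock. The log2 fold change was -0.14 ± 0.07 (SE, adjusted p = 0.143), with an unadjusted 95% interval from -0.28 to -0.004. Without Mock replicate 1 it was -0.22 (adjusted p = 0.0358), without Mock replicate 2 it was -0.07 (adjusted p = 0.573) and without FeSO4 replicate 1 it was -0.10 (adjusted p = 0.571), so this value too moved with single libraries.

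Bcl2l1 (ENSMUSG00000007659, chromosome 2, 152758732 to 152833803), which encodes BCL-XL, was at 77.1 and 72.3 CPM in Mock and at 84 and 69.4 CPM in FeSO4. The FeSO4 libraries lay on both sides of the Mock libraries. The log2 fold change was 0.04 ± 0.09 (SE, adjusted p = 0.818), and the interval ran from -0.15 to 0.22.

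The effectors were close to level. Bax (ENSMUSG00000003873, chromosome 7, 45461695 to 45466903) was at 131 and 122 CPM in Mock and at 132 and 131 CPM in FeSO4. FeSO4 replicate 2 and Mock replicate 1 differed by less than 1 CPM. Its log2 fold change was 0.06 ± 0.07 (SE, adjusted p = 0.603, interval -0.09 to 0.2). Bak1 (ENSMUSG00000057789, chromosome 17, 27019812 to 27028627) was at 47.5 and 40.5 CPM in Mock and at 46.8 and 47.7 CPM in FeSO4, with the low value in Mock replicate 2 alone. Its log2 fold change was 0.10 ± 0.09 (SE, adjusted p = 0.472), and it was -0.004 without Mock replicate 2.

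Of the BH3-only genes, Bbc3 (ENSMUSG00000002083, chromosome 7, 16308398 to 16318334) encodes PUMA, a potent killer that binds every guardian and is induced by p53 and by FOXO factors. It was at 32.5 and 29.6 CPM in Mock and at 24.5 and 25 CPM in FeSO4. Both FeSO4 libraries were below both Mock libraries, and the gap between the groups was larger than the gap within either. The mean fell from 31 ± 2.09 to 24.7 ± 0.314 CPM (SD, n = 2 each, edgeR adjusted p = 0.0297). The log2 fold change was -0.33 ± 0.10 (SE, interval -0.54 to -0.11), a change of -20.2%. This call was lost without Mock replicate 1, which stood apart in markers of other cells (-0.26, adjusted p = 0.152), without FeSO4 replicate 1 (-0.31, adjusted p = 0.145), without FeSO4 replicate 2 (-0.34, adjusted p = 0.1) and when all genes with at least 1 count were tested (-0.32, adjusted p = 0.11), with the direction kept in each. Over the 13 alternatives the log2 fold change lay between -0.39 and -0.26 and the adjusted p between 0.0106 and 0.152.

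The genes nearest to Bbc3 in pattern were Gne and Hsdl1. Their log2 CPM, centred on the mean of the 4 libraries, differed from that of Bbc3 by a root mean square of 0.01 and 0.012, among 8437 other genes with a symbol and a mean of at least 10 CPM. Gne was at 47 and 43.3 CPM in Mock and at 36 and 36.8 CPM in FeSO4. With 4 libraries many genes share such a pattern, and 92 lay within 0.05.

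Bcl2l11 (ENSMUSG00000027381, chromosome 2, 128126038 to 128162547), which encodes BIM, was at 51.2 and 53.8 CPM in Mock and at 44.3 and 49.7 CPM in FeSO4. Both FeSO4 libraries were lower than both Mock libraries, with FeSO4 replicate 1 the lowest. The log2 fold change was -0.16 ± 0.09 (SE, adjusted p = 0.213, interval -0.34 to 0.02), and under no alternative did it pass the threshold (adjusted p from 0.0766 to 0.749).

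The other BH3-only members overlapped between the groups. Pmaip1 (ENSMUSG00000024521), which encodes NOXA, the partner of MCL1, was at 32 and 32.7 CPM in Mock and at 28.8 and 33.7 CPM in FeSO4 (log2 fold change -0.05 ± 0.10, SE, adjusted p = 0.788). Bid (ENSMUSG00000004446, chromosome 6, 120893119 to 120917062) encodes the protein that caspase-8 cleaves to carry a death receptor signal to mitochondria. It had the lowest level of the family, at 9.81 and 10.4 CPM in Mock and at 9.95 and 10.6 CPM in FeSO4 (log2 fold change 0.02 ± 0.15, SE, adjusted p = 0.948). Bad (ENSMUSG00000024959, chromosome 19, 6941861 to 6951905) encodes a BH3-only protein that is held inactive by phosphorylation and 14-3-3 proteins. It was at 20 and 19.8 CPM in Mock and at 21.8 and 19.1 CPM in FeSO4 (log2 fold change 0.04 ± 0.11, SE, adjusted p = 0.86).

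For the 9 members that were not called, the unadjusted 95% intervals give a range of change for each gene alone, under TMM scaling. With library size only, the median log2 fold change over all genes tested was -0.066. The lowest bound was that of Bcl2l11, a level 21% lower in FeSO4. The highest was that of Bid, 26.2% higher. Intervals of the more abundant Bax (-5.74% to 15%), Mcl1 (-18.9% to 0.185%) and Bcl2 (-17.8% to -0.276%) were narrower than that of Bid (-18.5% to 26.2%).

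**Figure D2:**
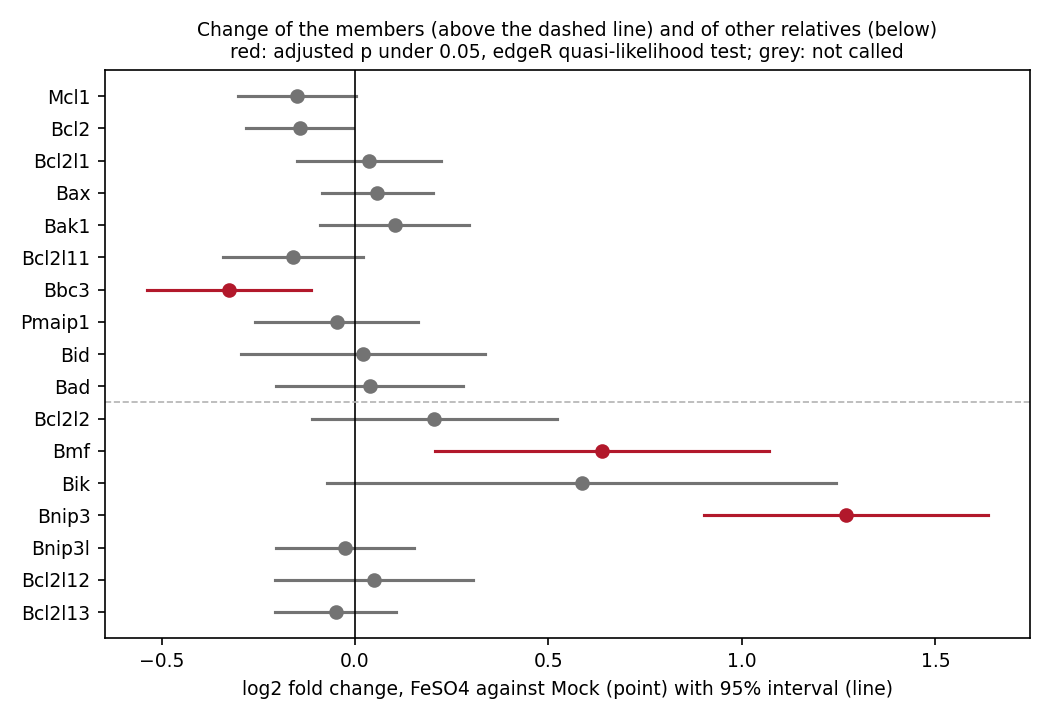
Log2 fold change, FeSO4 against Mock (horizontal axis), with its unadjusted 95% interval for the 10 members (above the dashed line) and for the relatives with a mean of at least 1 CPM in either group (below it). Red marks an adjusted p under 0.05. Bbc3 lies below 0 at -0.33, and Bmf and Bnip3 lie above 0 at 0.64 and 1.27.

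By same-numbered pairs, in log2 of the CPM ratio with 1 CPM added, Bbc3 was lower in both pairs (-0.39 for replicate 1 and -0.24 for replicate 2), as were Bcl2 (-0.12 and -0.17), Mcl1 (-0.24 and -0.07) and Bcl2l11 (-0.21 and -0.11). The sign differed between the pairs for Bcl2l1 (0.12 and -0.06), Bad (0.12 and -0.05), Pmaip1 (-0.15 and 0.04) and Bak1 (-0.02 and 0.23). Bax (0.009 and 0.11) and Bid (0.02 and 0.02) were above 0 in both. Groups did not overlap for 5 members (Bcl2, Mcl1, Bcl2l11 and Bbc3 with FeSO4 below, Bax with FeSO4 above), where 59.5% of all tested genes did not overlap (29.4% with FeSO4 below and 30.1% with FeSO4 above).

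To compare levels between genes, CPM was divided by exon length in kilobases. On this scale the order over the 4 libraries was Mcl1 (89.7 to 111 CPM per kilobase), Bax (90.9 to 98.4), Bcl2 (40 to 47.8), Bak1 (16.8 to 19.8), Bcl2l1 (14.7 to 17.7), Bbc3 (12.2 to 16.2), Pmaip1 (10.9 to 12.8), Bad (9.53 to 10.8), Bcl2l11 (5.52 to 6.7) and Bid (2.76 to 2.98). Mcl1 and Bax overlapped, as did Bak1 with Bcl2l1, Bcl2l1 with Bbc3, and Bbc3 with Pmaip1. The other neighbours in this order did not overlap. Summed per kilobase, the 3 guardians made up 50.1 and 53% of the family in Mock and 48 and 50.2% in FeSO4. The 2 effectors made up 35.5 and 32.8% in Mock and 38.3 and 36.3% in FeSO4, and the 5 BH3-only genes 14.3 and 14.2% in Mock and 13.7 and 13.5% in FeSO4. The shares of the guardians overlapped between the groups, those of the effectors and the BH3-only genes did not, and no test was made on them. Shares of a whole move together. As sums in CPM per kilobase, the effectors were at 117.4 and 107.8 in Mock and at 117.8 and 117.8 in FeSO4. The guardians were at 165.6 and 173.8 in Mock and at 147.5 and 162.7 in FeSO4, and the BH3-only genes at 47.4 and 46.6 against 42.2 and 43.9. Among single genes, 59.5% of all tested did not overlap.

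Guardians bind particular killers, so the log2 ratio of partners within each library was compared, in which scaling cancels. Bcl2 to Bcl2l11 was 2.61 and 2.68 in Mock and 2.7 and 2.62 in FeSO4. Bcl2l1 to Bad was 1.95 and 1.87 in Mock and 1.95 and 1.86 in FeSO4. In these 2 ratios the groups overlapped, with differences of 0.02 and -0.005. Mcl1 to Pmaip1 was 3.53 and 3.56 in Mock against 3.44 and 3.45 in FeSO4, a difference of -0.10. Bcl2 to Bax was 1.25 and 1.5 in Mock against 1.13 and 1.22 in FeSO4, a difference of -0.20, where the Mock libraries themselves lay 0.24 apart. With 2 libraries per group an exact two-sided permutation test on a single ratio cannot go below p = 0.333, so these are values without a test.

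**Figure D3:**
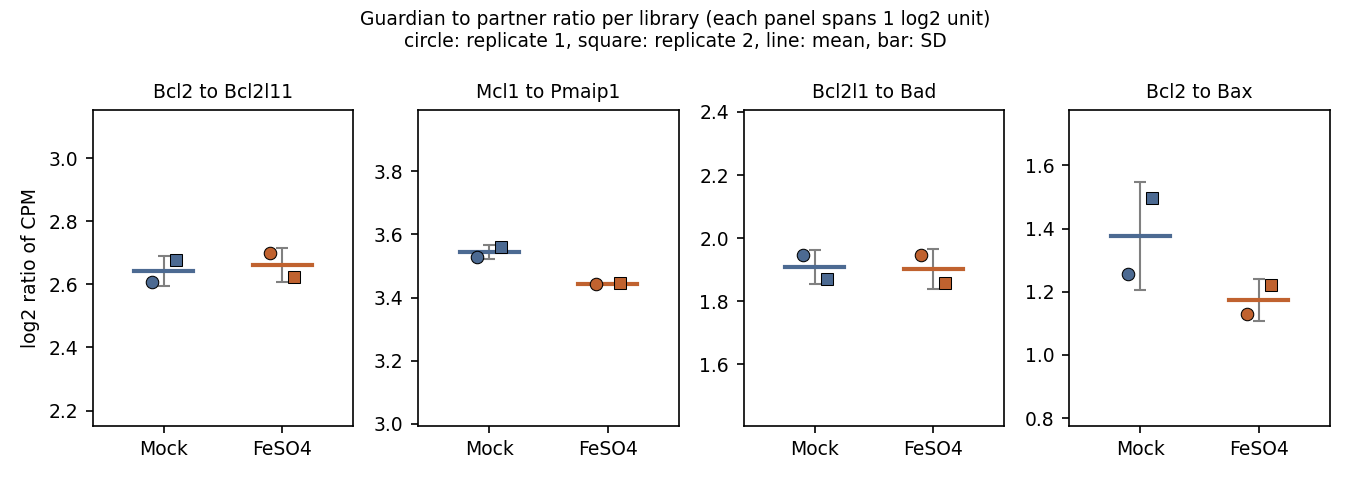
Log2 ratio of the CPM of a guardian to that of its partner (vertical axis, each panel spanning 1 log2 unit and not starting at 0) per library. Circles are replicate 1, squares replicate 2, lines means and bars SD. The groups overlap for Bcl2 to Bcl2l11 and Bcl2l1 to Bad and lie apart for Mcl1 to Pmaip1 (-0.10) and Bcl2 to Bax (-0.20). No test was made on these ratios, and among single genes 59.5% of all tested did not overlap.

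Exons of 4 members overlap those of a gene on the opposite strand in the GENCODE M1 annotation, and the strand setting of the counts was not given. For Bcl2 the neighbour D630008O14Rik had at most 5 counts, and for Bak1 the neighbour Ggnbp1 had 32 to 61 counts, against 9862 or more and 1602 or more for the members. For Bad, Gpr137 had 337 to 459 counts, against 708 to 827 for Bad. For Bid the neighbour was Bcl2l13, itself a BCL2 relative, with 2302 to 2922 counts against 341 to 436 for Bid. The values of Bad and Bid are therefore the less certain.

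Other relatives of the family were given as a list. Of the other guardians, Bcl2l2 (BCL-W) was at 11.4 and 9.37 CPM in Mock and at 12.1 and 11.9 CPM in FeSO4 (log2 fold change 0.21 ± 0.15, SE, adjusted p = 0.374). Bcl2a1b, an A1 gene of a family with near-identical copies, had 5 to 24 counts and was not called (adjusted p = 0.252). Bcl2l10 was at 0 counts in every library, and 3 counts in the shallowest library would be 0.0876 CPM. Bcl2a1a and Bcl2a1d were not analysed here.

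Of 10 further BH3-only and effector relatives 7 were tested, 2 were higher (Bmf and Bnip3) and 1 was lower (Bcl2l14), beside 10.9% and 9.17% of all genes tested. Bnip3, a mitochondrial BH3-like protein with a role in mitophagy and a known hypoxia target, was at 10.6 and 11 CPM in Mock and at 20 and 32 CPM in FeSO4. Both FeSO4 libraries were far above both Mock libraries and differed from each other. Its log2 fold change was 1.27 ± 0.17 (SE, adjusted p = 8e-05), and it stayed past the threshold under every alternative run (0.89 to 1.57). Its homologue Bnip3l (NIX) was not called (-0.03 ± 0.08, SE, adjusted p = 0.874).

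Bmf, a BH3-only gene known to be released by loss of attachment and also a FOXO target, was at 5 and 5.93 CPM in Mock and at 6.95 and 10 CPM in FeSO4. FeSO4 replicate 2 was the highest. The log2 fold change was 0.64 ± 0.20 (SE, adjusted p = 0.0366), and without FeSO4 replicate 2 it was 0.35 (adjusted p = 0.416). The call of Bmf was also lost without either Mock library, with DESeq2 (adjusted p = 0.0584), with library size only and with all genes of at least 1 count. Bcl2l14 had 50 and 21 counts in Mock and 5 and 10 in FeSO4 (log2 fold change -2.02 ± 0.69, SE, adjusted p = 0.0471), and without Mock replicate 1 it was -1.25 (adjusted p = 0.33). Its call was also lost without either FeSO4 library, with DESeq2 (adjusted p = 0.0796), with limma-voom (adjusted p = 0.0804) and with all genes of at least 1 count. Bik (adjusted p = 0.208), Bcl2l12 (0.825) and Bcl2l13 (0.689) were not called, and Bok, Hrk and Bcl2l15 had too few counts to be tested, at most 12 in a library.

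**Figure D4:**
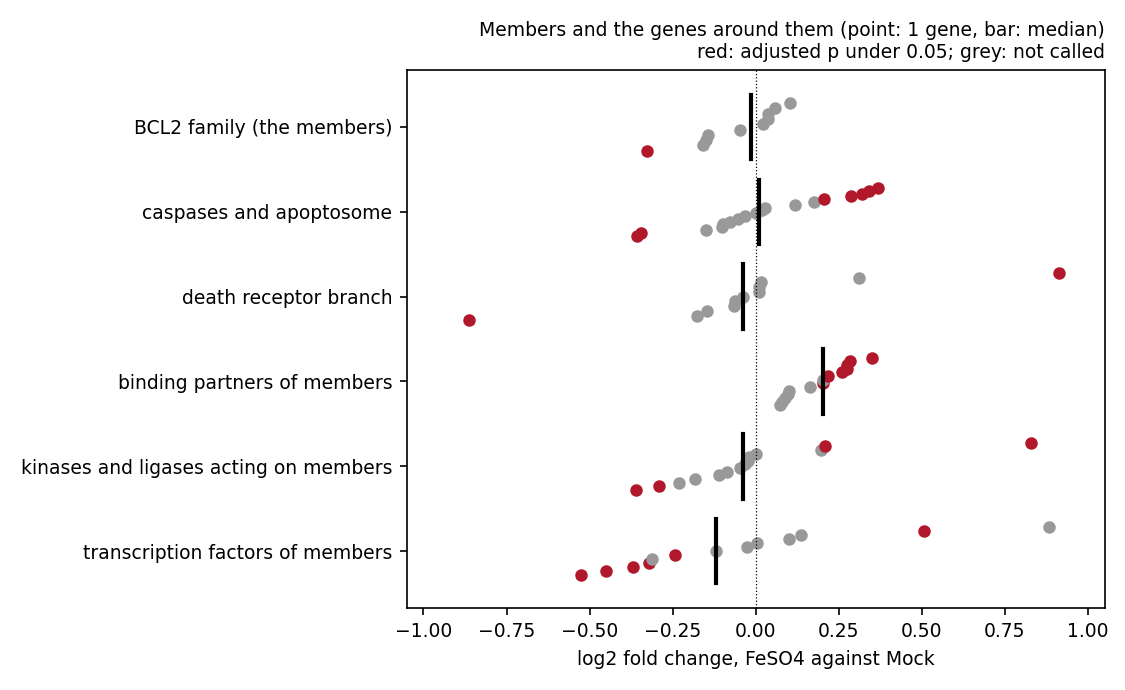
Log2 fold change, FeSO4 against Mock (horizontal axis), of the members and of 5 lists of genes around them. Points are genes (red, adjusted p under 0.05) and bars are medians. The binding partners lie to the right of 0 in all 14 cases, with a median of 0.2.

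Around the members, 7 of 14 genes for proteins that bind them were called higher. All 14 listed binding partners of members had a log2 fold change above 0 with every tool and scaling run on the 4 libraries, and 7 did not pass the threshold and 0 were called lower (median 0.2, against -0.00052 over all genes tested, of which 10.9% were called higher). In 12 of the 14 both FeSO4 libraries were above both Mock libraries, where 30.1% of all tested genes were, and in 2 (Dynll2 and Bag3, named after their values were seen) the groups overlapped. Most listed partners were abundant. Of the 8522 genes that averaged 10 CPM or more, 26% were called and 64.8% did not overlap, in either direction. The list also holds related genes, such as those of the 14-3-3 and Vdac families. Without Mock replicate 1 or without FeSO4 replicate 2, 13 were above 0 and 1 below. Without Mock replicate 2, FeSO4 replicate 1 or FeSO4 replicate 2, 5 passed. With library size only, 5 passed, and 4 did when all genes with at least 1 count were tested. Among the 7 called higher were the 14-3-3 genes Ywhag (0.35 ± 0.07), Ywhae (0.27 ± 0.06) and Ywhah (0.26 ± 0.06), whose products hold phosphorylated BAD in the cytosol, and Vdac1 (0.27 ± 0.06), which encodes a mitochondrial channel, given as log2 fold change ± SE. Vdac2, whose product holds BAK at the membrane, rose by 0.20 ± 0.06 (SE, adjusted p = 0.0305) and was named after its values were seen.

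Downstream of BAX and BAK, 5 of 18 caspase and apoptosome genes were higher and 2 were lower (median 0.01), beside 10.9% and 9.17% of all genes tested. With library size only, 3 were higher and 3 were lower (median -0.055). Birc3, which encodes the inhibitor cIAP2, rose from 61.7 and 67.4 CPM to 85.3 and 81.5 CPM (adjusted p = 0.00282). Cycs, which encodes cytochrome c, rose by 0.32 ± 0.08 (log2 fold change ± SE). Diablo, which encodes the inhibitor of the caspase inhibitors released along with cytochrome c, fell from 107 and 103 CPM to 86 and 79.2 CPM (-0.34 ± 0.07, SE, adjusted p = 0.00314). With 1 library left out, 3 were higher in each case and 1 or 2 were lower, the call of Cycs being lost without FeSO4 replicate 1. All 7 calls were lost when all genes with at least 1 count were tested. In the death receptor branch 2 of 11 genes were called, a share not above the 20.0% of all genes tested. Of these 1 was higher, Fasl (0.91 ± 0.29, adjusted p = 0.0334, at 1.73 to 3.76 CPM), and 1 was lower, Tnf (-0.86 ± 0.09, SE), which was at 110 and 98 CPM in Mock and at 62.1 and 52.5 CPM in FeSO4. The call of Fasl was lost without each of the 4 libraries in turn (adjusted p from 0.0524 to 0.235), with DESeq2 (0.0596) and with all genes of at least 1 count (0.105). Tnfrsf1a (adjusted p = 0.0529) and Tnfsf10 (0.128) did not pass. Tnfrsf1a did pass in edgeR with the replicate block (adjusted p = 0.0367) and with the legacy quasi-likelihood fit (0.0469). Tnfsf10 passed with library size only (-0.24, adjusted p = 0.0365).

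Of 14 kinases and ligases acting on members, 2 were higher and 2 lower, beside 10.9% and 9.17% of all genes tested. With library size only, 1 was higher and 4 were lower. Pim2, a kinase that phosphorylates BAD, rose from 102 and 105 CPM to 202 and 166 CPM (0.83 ± 0.08, SE, adjusted p = 2.95e-06), while its relative Pim1 fell from 522 and 586 CPM to 384 and 478 CPM (-0.36 ± 0.08, SE, adjusted p = 0.00617). Huwe1, which encodes a ubiquitin ligase of MCL1, was lower (-0.29 ± 0.07, SE, adjusted p = 0.00539), and Mapk3 rose by 0.21 ± 0.07 (SE, adjusted p = 0.0425). The call of Mapk3 was lost when libraries were scaled by upper quartile or by library size alone, and that of Pim1 with DESeq2. Without Mock replicate 2 the calls of Huwe1, Mapk3 and Pim1 were lost, without FeSO4 replicate 1 those of Mapk3 and Pim1, and without FeSO4 replicate 2 that of Mapk3. With all genes of at least 1 count all 3 were lost.

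Transcription factors that act on member genes were the list with most lower calls, 5 of 13, with 1 higher (median -0.12; 9.17% of all tested genes were called lower). The lower calls numbered 3 without Mock replicate 2 or without FeSO4 replicate 1, and 2 with all genes of at least 1 count, where the call of Foxo1 was lost (adjusted p = 0.0517). Foxo3 was at 78.9 and 82.3 CPM in Mock and at 54.3 and 57.7 CPM in FeSO4, which is -0.53 ± 0.08 on the log2 scale (SE, edgeR adjusted p = 0.000143). Foxo1 was at 189 and 204 CPM in Mock and at 157 and 158 CPM in FeSO4 (-0.32 ± 0.07, SE, adjusted p = 0.0025). For both genes the FeSO4 values lay below the Mock values, and the part of these factors in the values of the members was not tested. Stat5a, which relays IL-2 signals to Bcl2 family genes, was at 155 and 152 CPM in Mock and at 115 and 110 CPM in FeSO4 (-0.45 ± 0.07, SE, adjusted p = 0.000167). Atf4 rose by 0.51 ± 0.07 (SE, adjusted p = 5.5e-05), and Trp53, whose product induces Bbc3, Pmaip1 and Bax, was at 0.14 ± 0.06 (SE, adjusted p = 0.151) and was named after its values were seen.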

How the data were processed

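RNA from 2 Mock and 2 FeSO4 cultures was sequenced. The authors deposited raw read counts per Ensembl gene, which they had not normalized, and 5 rows of unassigned reads, left out here, which carry the row names of htseq-count. Of all reads in the table, 4.36 to 6.03% per library lay in no gene, 3.78 to 3.91% were ambiguous, 0.802 to 0.988% had low mapping quality, 1.8 to 2.31% were not aligned and 4.27 to 4.62% aligned more than once. The study's methods name STAR, mm9 and DESeq, whereas the submitters' processing notes list mm10, Trim Galore 0.6.7, STAR 2.7.9a and featureCounts. The strand setting is not given in the sources used here. Since 14930 of the 47729 IDs are absent from the mm9 annotation GENCODE M1 (used for symbols and exon lengths), positions are those of RefSeq on GRCm38.p6, matched by symbol. Reads of near-identical gene copies may be split or lost in counting.

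Genes were kept by filterByExpr (13732), then scaled (TMM) and compared with edgeR 4.0.16 (R 4.3.3, quasi-likelihood F test), p-values being adjusted after Benjamini-Hochberg across all 13732. Each SE was obtained as the absolute log2 fold change over the root of F. Alternatives were DESeq2 1.42.0, limma-voom (limma 3.58.1), other scalings and filters, a replicate block, the threshold of the study and each library left out in turn. The legacy fit was added after seeing the data. In simulated counts of this comparison (13465 genes), changes were put into 200 genes before filtering. Of these, 61.2% of 85 genes changed by 0.5 and 75% of 108 genes changed by 1 on the log2 scale were called. Of those called, 0 had the wrong sign, and 9 genes simulated without change were called too. In the data 20.0% of genes were called, so these shares need not hold there. No change as small as that of Bbc3 (-0.33) was simulated. The methods speak of pairs from independent experiments. Deviations of same-numbered libraries from their group means correlated at 0.03 over all genes tested and 0.22 over those of at least 10 CPM. Members, lists and motifs were chosen with earlier results of these data known. All members are named, with all relatives that were tested, from each list at most 4 genes with the lowest p, and the 2 genes nearest in pattern to each called member. Other names are marked, and 1 gene that this rule names is not reported here. The p-values rest on the spread between these 2 libraries per group, with the spread of each gene moderated by that of the other genes tested.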

Additional observations from a re-analysis of the deposited data

How the results depend on the processing

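Over all genes, 1491 were higher and 1259 lower. These counts were 524 and 304 when all genes with at least 1 count were tested, 641 and 787 at the threshold of the study (a log2 fold change of 0.5 or more in size with an unadjusted p under 0.05), and 980 higher with library size only, which took the share of higher calls from 54.2% to 35.1%. With a library left out they were 893 to 1199 and 710 to 1158. Members called higher stayed at 0 in edgeR, DESeq2 and limma-voom and under every other alternative. With edgeR 0 members were higher at an unadjusted p under 0.05, and the 2 members past it, Bcl2 and Bbc3, were lower, where 32.3% of all tested genes were past it. Members called lower went from 1 to 3 with library size only (Bbc3, Bcl2 and Mcl1), to 2 with the replicate block (Bbc3 and Mcl1), and to 0 with all genes of at least 1 count and at the threshold of the study. With a library left out, 0 to 1 were lower, Bcl2 without Mock replicate 1, Bbc3 without Mock replicate 2 and Mcl1 without FeSO4 replicate 2. In the replicate block fit, Tnfrsf1a (0.31) was called as well, and no other gene named from the lists changed its call.

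Signs turned near 0. With library size only they did for Bcl2l1 (-0.029), Bax (-0.0069), Bid (-0.044), Bad (-0.027) and Bcl2l12 (-0.016). Leaving out each library in turn gave ranges of -0.103 to 0.172 for Bcl2l1, -0.00397 to 0.214 for Bak1, -0.167 to 0.0653 for Pmaip1, -0.0295 to 0.0695 for Bid, -0.0525 to 0.134 for Bad and -0.167 to 0.108 for Bnip3l. The cause was not tested. Depth limited Bcl2a1b, Bcl2l14, Bok and Bcl2l15, with at most 50 counts in a library.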
